A study of Mus musculus with 28 samples.

Results

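The livers of male hCAR/hPXR mice, whose receptors CAR and PXR are the human ones, were compared after 7 days on diet with 1000 ppm phenobarbital or with 0 ppm. Controls and treated animals carry the same human receptors, so the comparison does not show the effect of the receptors. It holds the effect of the compound together with any effect of the slide. Of the 7 treated arrays, 6 were on another slide than the controls. These 14 arrays, 7 treated and 7 control animals, were chosen by strain, dose and feeding time from the labels and are 14 of the 28 arrays of the series. Each array holds total liver RNA of 1 animal, labelled in 1 colour. The other 14 arrays come from CD-1 mice (0 or 1500 ppm for 7 days, 4 animals each), used here only to show where the humanised animals differ, and from C3H mice given diethylnitrosamine (0 or 500 ppm for 27 weeks, 3 animals each), whose arrays enter only the estimate of spread in that comparison. The age of the animals, the promoter that drives the human receptors and the tissue they are made in are not given in the sources used here.

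CAR (gene Nr1i3) and PXR (gene Nr1i2) are nuclear receptors of the hepatocyte that bind as partners of the retinoid X receptor to the control regions of genes for drug oxidation, conjugation and export. Phenobarbital does not have to bind CAR: it releases the receptor from the cytoplasm by blocking signals of the epidermal growth factor receptor, and the receptor then enters the nucleus. In rodents the same compound enlarges the liver, and CAR also drives hepatocytes into the cell cycle. Animals with the human receptors serve to ask which of these responses the human proteins can carry.

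A level below is the log2 processed signal of a gene's probe minus the 75th percentile of all probes on the same array, so that 0 is the brightness of the probe at that percentile. A change is the difference of group means on that scale with the standard error of the fit. A gene was called when limma's adjusted p was below 0.05, and only called genes are said to have risen or fallen. The layout of the arrays bears on each result: the 7 controls and treated animal 1 were on 1 slide, and treated animals 2 to 7 were on another. The slide-matched change is treated animal 1 minus the mean of the controls, which is also the estimate that a fit with the slide as a block (the slide-blocked fit) gives, and "called" or "not called" after it refers to the adjusted p there. It rests on 1 treated animal. No spot was saturated, and 46.5% to 58.6% of the probes were well above background in the controls and 46.7% to 53% in the treated animals. Pairs of arrays correlated with r between 0.961 and 0.986. Replicate spots scattered most on the arrays of control 4, control 6 and treated animal 5.

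Transcripts changed across the whole range of the array. Of 20037 tested genes and transcripts 11643 were called (58.1%): 7004 rose (35%) and 4639 fell (23.2%). Rises of at least 2-fold numbered 445 (2.22%) and falls of at least 2-fold 1437 (7.17%). The 7 treated and 7 control animals did not overlap for 4112 genes (20.5%). Treated animal 1 lay above all 7 controls for 3639 of the genes that rose (18.2% of all tested) and below them for 2310 of those that fell (11.5%). In the slide-blocked fit 253 genes rose (1.26%) and 187 fell (0.933%), with treated animal 1 alone carrying the contrast. The slide term of that fit is the mean of treated animals 2 to 7 minus treated animal 1. Slide and animal cannot be told apart in it. The median change over all genes was 0.13, and 0.048 in treated animal 1.

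Direction went with brightness. Above a mean level of 2, 50.1% of 7149 genes rose and 12% fell. At or below a level of -2, 13.8% of 3166 rose and 39.9% fell. Of the calls, 60.2% were rises on this scale, 53.1% after quantile normalization (median change 0.053) and 71.7% when the array median was subtracted (median change 0.30). Small changes in 1 direction are therefore read below against the 35% and 23.2% of all tested genes, and other counts follow in brackets where another scaling moved the share of rises among a list's calls by over 10 points, or where 3 or more members passed the filter through 1 group only, so that a difference was built into their selection. Of 173 genes named here and called, 10 lost the call after quantile normalization, 4 with the array median subtracted and 1 with normexp background correction. That correction also moved 34 of them by over 1.5 times, all toward 0 and most of them dim, to such values as a Cyp2c65 log2 change of 2.09 and a Sult2a1 log2 change of 4.9.

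The samples carried the markers of liver. All 8 hepatocyte markers were well above background on all 14 arrays. Of the 8, 1 rose and 0 fell (0 and 2 after quantile normalization, 2 and 0 with the array median subtracted). The rise was that of the apolipoprotein gene Apoc3 (0.36 ± 0.14, slide-matched 0.036, not called, and not called at 0.28 after quantile normalization). Its call was lost when any of 6 animals (controls 1, 2 and 3, treated animals 2, 6 and 7) was left out (0.29 to 0.34). Albumin, Alb, lay between 9.9 and 10.64 (median 10.33) in the controls and between 10.05 and 10.54 (median 10.17) in the treated animals, with treated animal 1 at 10.17, and the groups overlapped throughout (change -0.043 ± 0.12, adjusted p = 0.764).

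The probes here are those of the mouse receptor genes, and whether they also read the human transcripts was not tested. The mouse Nr1i2 probe was well above background on 1 of 7 control and 0 of 7 treated arrays and was not tested, whereas it was well above background on all 4 CD-1 controls. The Nr1i3 probe stayed well above background on all 14 arrays. It lay between -1.15 and -0.89 (median -1.0) in the controls and between -2.42 and -1.67 (median -2.0) in the treated animals, with treated animal 1 at -1.67. No treated animal reached the lowest control, and Nr1i3 fell by 0.99 ± 0.12 (adjusted p = 2.1e-05, slide-matched -0.65, not called). The mean of all its probes, dim ones included, changed by -0.30 and was not called (adjusted p = 0.291). Where the probe lies relative to the replaced part of the gene is not given in the sources used here. Of the 24 tested nuclear receptors and partners, 8 rose and 4 fell (5 and 7 after quantile normalization, 13 and 2 with the array median subtracted), so no direction is read for them. The retinoid X receptor gene Rxra (0.54 ± 0.092, slide-matched 0.16, not called, and not called at 0.59 over the mean of all probes) and the corepressor gene Ncor1 (0.61 ± 0.098, slide-matched 0.12, not called) were among the rises, but treated animal 1 lay within the control range for both, and another probe of each was not called (0.64 and 0.14).

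**Figure D1:**
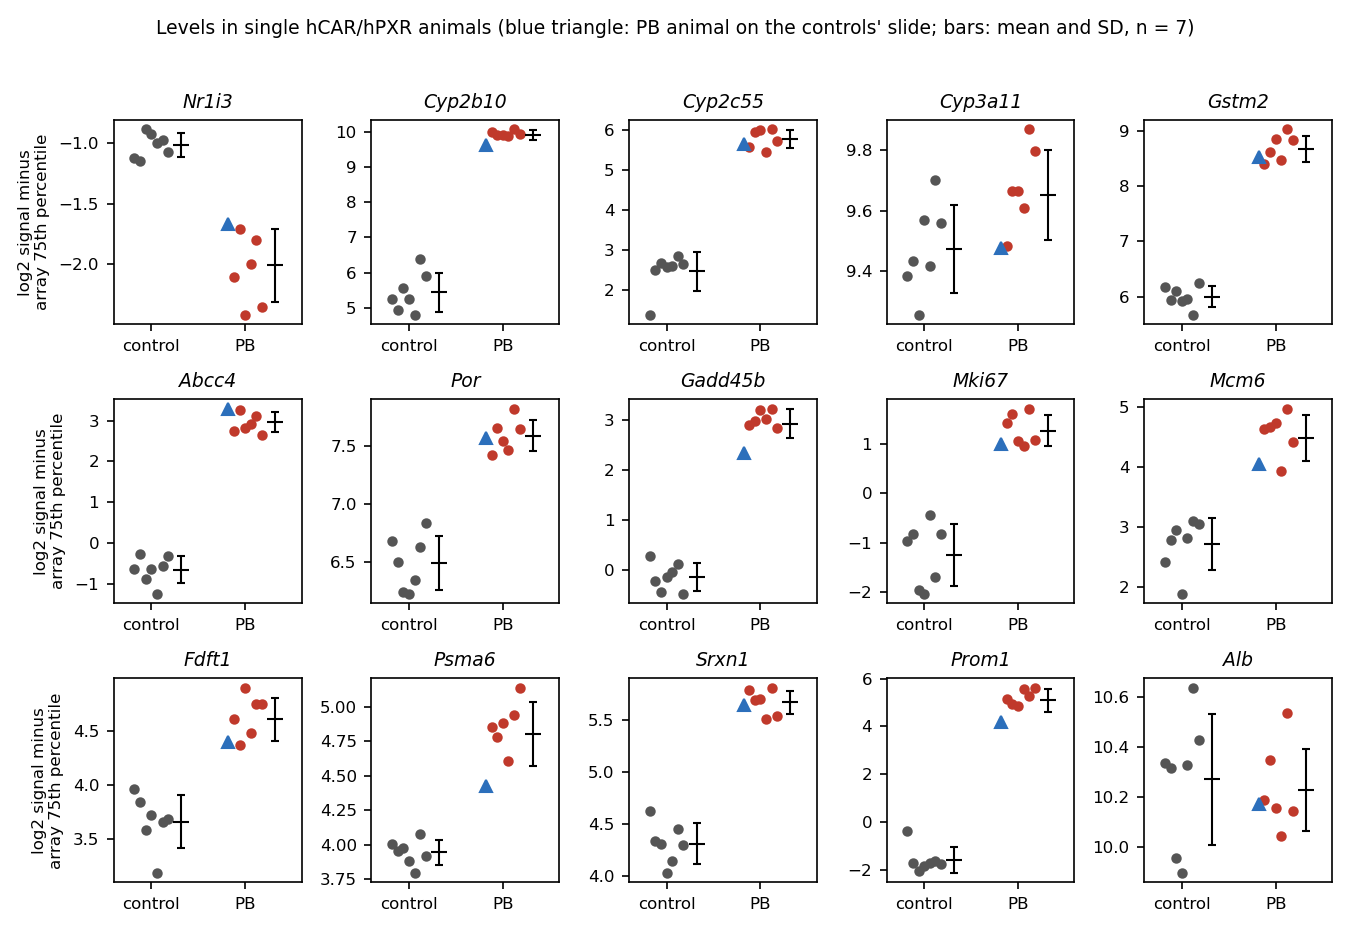
Levels of 15 genes in single animals, as log2 signal minus the array's 75th percentile, for 7 control and 7 phenobarbital (PB) hCAR/hPXR mice; points are animals, blue triangles the treated animal on the controls' slide, and bars the mean and SD. Treated and control animals overlap for Cyp3a11 and Alb and for none of the other 13 genes; the blue triangle lies above all controls for 12 of those 13 and below all controls for Nr1i3.

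Most P450 genes under CAR and PXR control rose. Of 21 tested genes of this list 17 rose and 0 fell, 13 by at least 2-fold, with a median change of 1.27 (1.09 in treated animal 1). Treated animal 1 lay above all controls for 16 of the 17, and 12 were called in the slide-blocked fit. 18 of the 21 were well above background on all 14 arrays, and 15 of those rose, against 37.6% of all 17546 such genes.

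Cyp2b10, the phenobarbital-responsive P450 by which CAR activity in mice is usually followed, lay between 4.79 and 6.38 (median 5.25) in the controls and between 9.63 and 10.08 (median 9.94) in the treated animals, with treated animal 1 at 9.63. Treated animal 1 was the lowest of its group and still stood far above the highest control. The change was 4.49 ± 0.20 (SE), 22.4-fold, with adjusted p = 2.46e-09 (slide-matched 4.2, called). Its neighbour Cyp2b9, a P450 that male mice normally keep low, lay between -1.47 and 0.18 (median -0.75) in the controls and between 3.84 and 4.5 (median 4.12) in the treated animals, with treated animal 1 at 3.91. All treated animals were above all controls, and Cyp2b9 rose 29.9-fold (4.9 ± 0.21, slide-matched 4.73, called). The CAR- and PXR-responsive Cyp2c55 lay between 1.39 and 2.87 (median 2.62) in the controls and between 5.46 and 6.02 (median 5.74) in the treated animals, with treated animal 1 at 5.64. Control 1 was the lowest control by more than 1 log2 unit, the groups did not overlap, and the change was 3.3 ± 0.19 (adjusted p = 4.18e-08, slide-matched 3.17, called). Cyp2c65 rose as well (4.13 ± 0.21, slide-matched 4.24, called).

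Cyp3a11, the main PXR target among mouse P450 genes, gave a different picture. Its brightest probe lay between 9.25 and 9.7 (median 9.43) in the controls and between 9.47 and 9.87 (median 9.67) in the treated animals, with treated animal 1 at 9.47. The groups overlapped and the change of 0.18 ± 0.086 was not called (adjusted p = 0.087). It was called when the array median was subtracted (0.35), with normexp background correction (0.27), and without control 6 (0.22) or treated animal 1 (0.21). A dimmer Cyp3a11 probe rose by 1.23 (adjusted p = 1.13e-05), so the probes of this gene disagree; its sequence resembles those of other Cyp3a genes, which a probe may share. Cyp3a13 rose by 0.88 ± 0.18, with treated animal 1 inside the control range (slide-matched 0.52, not called). Cyp1a2, a P450 of planar amines and caffeine that the aryl hydrocarbon receptor also controls, lay between 2.72 and 4.04 (median 3.81) in the controls and between 4.33 and 5.13 (median 4.71) in the treated animals, with treated animal 1 at 4.38. The groups did not overlap, control 1 was the lowest, and the change was 1.04 ± 0.19 (adjusted p = 0.000349, slide-matched 0.72, not called).

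P450 genes outside this group were divided, with 5 of 26 risen and 5 fallen (3 and 8 after quantile normalization, 7 and 1 with the array median subtracted), below the shares of all tested genes. The retinoic acid hydroxylase Cyp26a1 (1.79 ± 0.19, slide-matched 1.49, not called) had the largest change of them. The lanosterol demethylase Cyp51 (0.54 ± 0.12, slide-matched 0.70, not called) rose, and Cyp17a1 (-0.88 ± 0.21, slide-matched -1.47, not called), a steroid hydroxylase, fell. Cyp4f15 rose by 0.43 ± 0.12 (slide-matched 0.12, not called, and not called at 0.22 after quantile normalization) with treated animal 1 inside the control range.

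Conjugating enzymes, which attach glutathione, glucuronic acid or sulfate to reactive or oxidised compounds, rose with the P450 enzymes. Of 21 glutathione transferase genes 15 rose and 1 fell, with a median change of 0.96, and 8 were called in the slide-blocked fit. Gstm2 lay between 5.67 and 6.24 (median 5.97) in the controls and between 8.4 and 9.03 (median 8.62) in the treated animals, with treated animal 1 at 8.52. The gap between the groups was wider than the range within either, and the change was 2.68 ± 0.11 (SE), 6.39-fold, with adjusted p = 1.4e-09 (slide-matched 2.52, called). The related Gstm4 (2.52 ± 0.13, slide-matched 2.58, called) and Gstt3 (1.67 ± 0.11, slide-matched 1.39, called) rose without overlap. Gsta3, already bright in the controls, rose by 0.43 ± 0.10 (slide-matched 0.19, not called), with treated animal 1 inside the control range. Of 26 glucuronosyltransferase and sulfotransferase genes 17 rose and 2 fell (18 and 0 with the array median subtracted, 12 and 2 among the 21 well above background on all 14 arrays), with a median of 0.49 (0.35 over those seen on all 14 arrays), and 10 of the rises were called in the slide-blocked fit. Ugt2b38 rose by 0.45 ± 0.11 (slide-matched 0.13, not called, and not called at 0.25 after quantile normalization).

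Sult2a6, Sult2a2 and Sult2a1, sulfotransferases that conjugate bile acids and steroids and are a female feature of mouse liver, were not well above background on any control array and were on all 7 treated arrays. Sult2a6 lay between -5.56 and -4.41 (median -4.75) in the controls and between 3.13 and 6.11 (median 5.01) in the treated animals, with treated animal 1 at 3.41. No control array was well above background, so its rise is a lower bound: at least 325-fold, with the dimmest signal marked well above background on each control array in place of the control value. On the same basis Sult2a2 rose at least 291-fold and Sult2a1 at least 125-fold (adjusted p = 1.4e-09, 1.82e-09 and 6.33e-09 for the measured values, all called in the slide-blocked fit). These genes are near-identical copies whose probes may share transcripts, and another probe of Sult2a6 gave a measured change of 7.65 against 9.62. Treated animal 1 was among the lower treated animals for all 3 genes (3.41, 3.54 and 2.18).

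Among reductases, esterases and dehydrogenases of drug metabolism 28 of 43 rose and 5 fell, and 6 of the rises were called in the slide-blocked fit. The carbonyl reductase gene Cbr3 lay between -0.38 and 0.42 (median -0.049) in the controls and between 3.28 and 4.37 (median 4.11) in the treated animals, with treated animal 1 at 4.17. The lowest treated animal was over 2 log2 units above the highest control, and the change was 3.94 ± 0.19 (SE), 15.3-fold, with adjusted p = 4.33e-09 (slide-matched 4.16, called). Akr1b7, an aldo-keto reductase of lipid aldehydes, rose 24.5-fold (4.62 ± 0.28, slide-matched 4.29, called), with control 1 above the other controls. The aldehyde dehydrogenase gene Aldh1a7 (0.87 ± 0.072, slide-matched 0.72, called) rose with little spread in either group. Aldh1b1 rose by 0.49 ± 0.097 (slide-matched 0.27, not called), with treated animal 1 inside the control range.

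Export and uptake carriers moved in part, 41.7% of them up and 8.33% down, against 35% and 23.2% of all tested genes. Of 24 hepatobiliary transporter genes 10 rose and 2 fell (17 and 1 with the array median subtracted), and 3 were called in the slide-blocked fit. Abcc4, which pumps conjugates and bile acids back into the blood, lay between -1.25 and -0.27 (median -0.63) in the controls and between 2.66 and 3.29 (median 2.92) in the treated animals, with treated animal 1 at 3.29. Treated animal 1 was the highest of its group, and the change was 3.62 ± 0.15 (SE), 12.3-fold, with adjusted p = 1.4e-09 (slide-matched 3.95, called). The uptake carrier Slco1a4 (1.51 ± 0.12, slide-matched 1.61, called) and the efflux pump Abcc3 (0.90 ± 0.098, slide-matched 0.62, not called) rose without overlap. Slco1a1, a male-biased uptake carrier, fell by 3.06 ± 0.67 with overlap and is described with the male-biased genes.

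P450 enzymes need haem and electrons. Of 18 genes of haem synthesis and electron supply 12 rose and 0 fell (8 and 1 after quantile normalization), and Por alone was called in the slide-blocked fit. Por, the reductase that passes electrons to all microsomal P450 enzymes, lay between 6.23 and 6.84 (median 6.5) in the controls and between 7.42 and 7.83 (median 7.57) in the treated animals, with treated animal 1 at 7.57. No treated animal was within the control range, and the change was 1.09 ± 0.10 (SE), 2.14-fold, with adjusted p = 3.8e-06 (slide-matched 1.07, called). The haem synthesis gene Alad (0.68 ± 0.089, slide-matched 0.44, not called) and the haem-binding P450 partner Pgrmc1 (0.57 ± 0.082, slide-matched 0.38, not called) rose, as did Ppox (0.45 ± 0.088, slide-matched 0.25, not called), for which treated animal 1 lay inside the control range. Alas1, the rate-limiting enzyme of haem synthesis, lay between 7.34 and 8.17 (median 7.55) in the controls and between 7.7 and 8.67 (median 7.97) in the treated animals, with treated animal 1 at 7.97. Treated animal 2 was the highest of all, the groups overlapped, and the change of 0.28 ± 0.18 was not called (adjusted p = 0.18), though it was with the array median subtracted (0.45, adjusted p = 0.0453). Genes of the endoplasmic reticulum membrane, which phenobarbital is known to expand, gave 12 rises and 2 falls among 28 tested genes (6 and 2 after quantile normalization), and 0 rose in the slide-blocked fit. The membrane-shaping genes Rtn3 (0.35 ± 0.067, slide-matched 0.17, not called) and Reep6 (0.51 ± 0.11, slide-matched 0.11, not called) rose. Probes of the translocon gene Ssr1 disagreed, with changes of 0.50, 0.63 and -0.33. The phosphatidate phosphatase gene Lpin1 fell by 1.76 ± 0.31 (slide-matched -1.83, not called), and a dimmer probe fell by 2.86.

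Among growth regulators that CAR is known to act on, Gadd45b had the largest change. Gadd45b, a CAR-bound stress and growth regulator, lay between -0.47 and 0.29 (median -0.13) in the controls and between 2.33 and 3.22 (median 2.98) in the treated animals, with treated animal 1 at 2.33. Treated animal 1 was the lowest treated animal, apart from the other 6, but stood over 2 log2 units above the highest control. The change was 3.05 ± 0.15 (SE), 8.29-fold, with adjusted p = 5.03e-09 (slide-matched 2.46, called). Of 21 genes of that list 8 rose (38.1%) and 2 fell (9.52%), against 35% and 23.2% of all tested genes. The share of rises was near that of all genes, so no rise is read for the list. Myc rose by 0.99 ± 0.19 (slide-matched 0.52, not called) with treated animal 1 inside the control range. The growth inhibitor Tgfb1 (0.57 ± 0.093, slide-matched 0.20, not called) rose, and Met (-0.42 ± 0.065, slide-matched -0.59, called), the receptor of hepatocyte growth factor, fell.

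Of the 21 tested G1 regulators 13 rose and 2 fell, and 2 of the rises were called in the slide-blocked fit. Ccnd1, cyclin D1, which brings hepatocytes out of rest, lay between 0.95 and 1.32 (median 1.07) in the controls and between 1.44 and 1.92 (median 1.64) in the treated animals, with treated animal 1 at 1.64. The groups did not overlap, and the change was 0.56 ± 0.088 (adjusted p = 0.000128, slide-matched 0.55, not called). The transcription factors of S-phase entry E2f2 (1.19 ± 0.11, slide-matched 1.0, called) and E2f1 (1.04 ± 0.098, slide-matched 0.72, called) were the calls of the slide-blocked fit. The pocket protein Rbl1 (1.57 ± 0.19, slide-matched 1.14, not called, well above background on 5 of 7 control arrays) and Ccnd3 (0.41 ± 0.097, slide-matched 0.14, not called) rose too. Cdkn1a, the p53-dependent inhibitor of cyclin kinases, lay between 0.99 and 1.86 (median 1.46) in the controls and between 0.81 and 1.97 (median 1.64) in the treated animals, with treated animal 1 at 0.81, with full overlap of the groups and no call (change -0.0065 ± 0.19, adjusted p = 0.979).

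Genes that copy DNA gave 25 rises and 3 falls among 34 tested genes, with a median change of 0.64 (0.54 in treated animal 1), and 2 were called in the slide-blocked fit. Uhrf1, which keeps DNA methylation in step with replication, lay between -2.33 and -1.57 (median -1.94) in the controls and between -0.43 and 1.66 (median 0.71) in the treated animals, with treated animal 1 at 0.35. The ranges stayed apart, and the change was 2.68 ± 0.25 (SE), 6.4-fold, with adjusted p = 3.71e-06 (slide-matched 2.32, called). The helicase subunit Gins2 (1.6 ± 0.12, slide-matched 1.58, called) and the chromatin assembly factor Chaf1b (1.22 ± 0.14, slide-matched 0.80, not called) rose. Mcm6, a subunit of the replicative helicase which was named after its values were seen, rose by 1.77 ± 0.20 without overlap (slide-matched 1.33, not called). Cdc45, which works with these helicase subunits, moved the other way: it fell by 0.93 ± 0.16, at a low level and with treated animal 1 inside the control range.

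Genes of G2 and mitosis had the largest share of rises of all lists. Of 52 genes 39 were tested, and 17 of these were well above background on every array of 1 group only, so a rise was built into their selection. Of the 22 that were well above background on all 14 arrays 20 rose and 1 fell, against 37.6% and 20.5% of all such genes, and their median change was 1.63. Over all 39, 37 rose and 1 fell (median 2.0, and 1.82 with the 3 genes that were not well above background on any control array at their lower bound), and 20 rose in the slide-blocked fit. Treated animal 1 lay above all controls for all 37 genes that rose.

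Mki67, whose product coats chromosomes of dividing cells and is the usual proliferation marker, lay between -2.04 and -0.44 (median -0.95) in the controls and between 0.97 and 1.72 (median 1.09) in the treated animals, with treated animal 1 at 0.99. The controls were spread over more than 1 log2 unit, all below the treated animals, and the change was 2.51 ± 0.25 (SE), 5.7-fold, with adjusted p = 4.72e-06 (slide-matched 2.24, called). Incenp, a subunit of the chromosome passenger complex, rose by 1.55 ± 0.11 (slide-matched 1.32, called), and Racgap1, a regulator of the cleavage furrow, by 1.63 ± 0.13 (slide-matched 1.6, called). Bub1, a spindle checkpoint kinase, was not well above background on any control array and rose at least 1.83-fold. For the measured values, which are no lower bound, limma's adjusted p was 6.85e-07 and the slide-matched log2 change 1.93 (called). Per animal, the mean deviation of the 22 mitosis genes seen on all 14 arrays lay between 1.33 (animal 5) and 2.01 (animal 6) in the treated mice and between -0.49 and 0.37 in the controls. Bulk liver RNA does not tell more dividing cells from more RNA per cell.

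Promoters of these genes are shown because mitotic, replication and stress genes are known to share short elements. The genes shown were picked by adjusted p among risen list members whose promoter already held the elements searched. That they hold them was therefore fixed by the choice. Each run below holds 250 bases before and 50 after the start of the gene, read 5' to 3' on the gene's strand from RefSeq's GRCm38.p6 table. Bub1 (chr2:127831810-127832109, minus strand) and Racgap1 (chr15:99651607-99651906, minus strand) have in capitals the cell cycle homology region, searched as TTTGAA or TTCGAA, and the CCAAT box, searched as CCAAT, on both strands. Mcm6 (chr1:128359656-128359955, minus strand) has in capitals its matches to the E2F element, searched as TTTCCCGC or TTTGGCGC.
Bub1: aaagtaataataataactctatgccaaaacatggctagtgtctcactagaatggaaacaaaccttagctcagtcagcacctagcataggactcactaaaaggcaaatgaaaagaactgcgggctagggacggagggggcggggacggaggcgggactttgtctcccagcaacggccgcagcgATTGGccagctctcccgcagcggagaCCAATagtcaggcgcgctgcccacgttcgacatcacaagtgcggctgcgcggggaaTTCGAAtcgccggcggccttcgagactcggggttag
Racgap1: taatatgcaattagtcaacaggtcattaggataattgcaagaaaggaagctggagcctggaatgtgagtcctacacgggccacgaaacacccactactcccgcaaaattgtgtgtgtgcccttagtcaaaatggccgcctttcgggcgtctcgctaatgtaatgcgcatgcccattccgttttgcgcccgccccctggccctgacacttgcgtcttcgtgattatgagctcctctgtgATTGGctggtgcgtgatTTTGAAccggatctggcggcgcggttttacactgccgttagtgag
Mcm6: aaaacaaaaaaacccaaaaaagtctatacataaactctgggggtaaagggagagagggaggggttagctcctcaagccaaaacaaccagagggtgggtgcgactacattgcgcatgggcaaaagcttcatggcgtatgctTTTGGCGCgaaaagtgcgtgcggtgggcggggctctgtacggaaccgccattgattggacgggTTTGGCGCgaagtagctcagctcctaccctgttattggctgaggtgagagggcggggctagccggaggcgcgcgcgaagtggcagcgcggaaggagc
Of 33 mitosis promoters found among RefSeq's promoters 23 (69.7%) held a cell cycle homology region, against 14.4% of the 10191 promoters of tested genes and 19.4% of all 27025. A CCAAT box stood in 23 of the 33 (69.7%, against 38.5% and 37.9%) and in 18 of 28 promoters of the replication list (64.3%), and both elements in 20 of the mitosis promoters (60.6%, against 5.92% and 7.7%). The E2F element was found in 9 of 28 promoters of the replication list (32.1%, against 2.8% of tested genes) and in 0 of the 33 of the mitosis list. No base was shared by matches to different elements in the promoters shown. These are matches of letters, not measured binding, and the lists were made from gene function, not from the promoters.

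Targets of p53 gave 12 rises and 1 fall among 18 tested genes (11 and 3 after quantile normalization), and 2 of the rises were called in the slide-blocked fit. Phlda3, a p53-induced brake on AKT signalling, lay between -1.16 and -0.25 (median -0.64) in the controls and between 0.94 and 2.04 (median 1.42) in the treated animals, with treated animal 1 at 1.2. No animal of the treated group overlapped the controls, and the change was 2.13 ± 0.18 (adjusted p = 1.5e-06, slide-matched 1.9, called). The death-promoting Bbc3 (0.83 ± 0.096, slide-matched 0.65, not called), the nuclease gene Aen (0.74 ± 0.093, slide-matched 0.66, not called) and the death receptor Fas (0.64 ± 0.17, slide-matched 0.12, not called) rose less. Bcl2 family genes gave 9 rises and 1 fall among 16 tested genes (7 and 3 after quantile normalization), and the slide-blocked limma fit called 0. The pore-former Bak1 (0.67 ± 0.10, slide-matched 0.59, not called) and its activator Bid (0.33 ± 0.064, slide-matched 0.25, not called) rose without overlap. Bnip3l rose on its brightest probe (0.43 ± 0.10, slide-matched 0.11, not called) and was not called on 3 others.

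Cholesterol synthesis and uptake genes gave 22 rises and 0 falls among 25 tested genes, by small amounts (median 0.55, 0.53 in treated animal 1). Treated animal 1 lay above all controls for 15 of them, but the slide-blocked limma fit called 0. The groups did not overlap for 7 of the 25 genes. Over the list the mean deviation from the control mean was 0.38 in control 1, level with treated animal 3 (0.38). Fdft1, squalene synthase, lay between 3.18 and 3.96 (median 3.68) in the controls and between 4.37 and 4.9 (median 4.62) in the treated animals, with treated animal 1 at 4.4. The groups did not overlap, treated animal 1 was among the lower treated animals, and the change was 0.95 ± 0.12 (adjusted p = 2.75e-05, slide-matched 0.74, not called). The mevalonate pathway kinase gene Pmvk (0.65 ± 0.13, slide-matched 0.33, not called) rose with treated animal 1 inside the control range.

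Fatty acid and triglyceride synthesis genes gave 17 rises and 1 fall among 28 tested genes (12 and 5 after quantile normalization). Fasn, fatty acid synthase, lay between 0.81 and 1.92 (median 1.4) in the controls and between 0.80 and 2.66 (median 2.18) in the treated animals, with treated animal 1 at 2.45. The lowest treated animal was at the level of the lowest control, and the change was 0.71 ± 0.26 (adjusted p = 0.0312, slide-matched 1.19, not called). The call was lost when any of 7 animals (controls 2, 4 and 5, treated animals 1 to 4) was left out (0.60 to 0.68). The fatty acid carriers Fabp4 (1.06 ± 0.10, slide-matched 0.70, not called) and Cd36 (1.08 ± 0.13, slide-matched 0.98, not called) and the desaturase Fads1 (0.65 ± 0.081, slide-matched 0.47, not called) rose without overlap, and Fads2 rose by 0.42 ± 0.13 (slide-matched 0.0068, not called) with treated animal 1 inside the control range. Of 30 genes of fatty acid oxidation, ketogenesis and PPARA targets 8 rose and 2 fell (5 and 4 after quantile normalization, 12 and 1 with the array median subtracted, 8 and 1 among the 27 well above background on all 14 arrays), under the share of all genes. Cpt1a, the gate of mitochondrial oxidation, was not called (-0.13 ± 0.11, adjusted p = 0.309), though it was called lower after quantile normalization (-0.33). The mitochondrial carrier Ucp2 (0.89 ± 0.16, slide-matched 0.50, not called), the peroxisomal thioesterase Acot4 (0.72 ± 0.14, slide-matched 0.95, not called) and the thiolase Acaa1a (0.39 ± 0.075, slide-matched 0.29, not called, and not called at 0.15 after quantile normalization) rose. Bile acid genes gave 6 rises and 2 falls among 15 tested genes (2 and 2 after quantile normalization). Cyp7a1, which sets the pace of bile acid production, lay between 2.19 and 3.13 (median 2.76) in the controls and between 1.67 and 4.21 (median 3.65) in the treated animals, with treated animal 1 at 3.42. The treated animals were both above and below the control range, and the change of 0.63 ± 0.38 was not called (adjusted p = 0.165). Without treated animal 5, the lowest, it was called (0.91, adjusted p = 0.0202). The reductase Akr1d1 (0.77 ± 0.12, slide-matched 0.85, not called) rose, Cyp7b1 (-0.95 ± 0.21, slide-matched -1.53, not called), the oxysterol hydroxylase, fell, and Fgfr4 (0.45 ± 0.11, slide-matched 0.23, not called), the receptor of the gut hormone that stops bile acid synthesis, rose on its brightest probe but not on another.

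Glucose-making genes were the metabolic list with the fewest rises, 1 of 15, with 3 fallen (2 and 0 with the array median subtracted). Pck1, the control step of glucose synthesis, was not called (-0.31 ± 0.21, adjusted p = 0.219), although treated animal 1 was below all controls and quantile normalization gave a called fall (-0.62). The coactivator Ppargc1a fell by 0.60 ± 0.19 on its brightest probe and not on another or with the array median subtracted (-0.43), Got1 (-0.47 ± 0.16, slide-matched -0.90, not called, and not called at -0.30 with the array median subtracted) fell, and the aminotransferase Gpt2 rose by 0.47 ± 0.13 (slide-matched 0.57, not called, and not called at 0.26 after quantile normalization) over 6 controls, 1 value being lost. Sugar-using genes gave 13 rises and 2 falls among 27 tested genes (10 and 5 after quantile normalization, 15 and 0 with the array median subtracted, 11 and 1 among the 23 well above background on all 14 arrays). The glycogen branching enzyme Gbe1 (0.80 ± 0.10, slide-matched 0.85, called) was the call of the slide-blocked fit, and the pentose phosphate enzyme Tkt (0.84 ± 0.10, slide-matched 0.80, not called), over 6 controls, and Pkm (0.76 ± 0.10, slide-matched 0.27, not called) rose without overlap. Hk1 rose on its brightest probe (0.37 ± 0.091, slide-matched -0.017, not called) and fell on another (-0.56).

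Genes of the periportal zone, where ammonia is turned into urea, gave 6 rises and 2 falls among 24 tested genes, and those of the pericentral zone, where Wnt signals act, rose in 7 of 23 and fell in 3. These shares lay at or under those of all genes. The urea cycle activator Nags (0.63 ± 0.093, slide-matched 0.47, not called), Agxt (0.71 ± 0.13, slide-matched 0.25, not called) and Fah (0.38 ± 0.085, slide-matched 0.11, not called, and not called at 0.15 after quantile normalization) rose. Pericentral Lhpp (0.83 ± 0.10, slide-matched 0.55, not called) and Oat (0.60 ± 0.11, slide-matched 0.16, not called) rose, while Slc1a4 (-0.96 ± 0.13, slide-matched -0.59, not called) and the Wnt target Lgr5 (-0.86 ± 0.12, slide-matched -0.64, not called) fell without overlap. Glul, glutamine synthetase of the last hepatocytes around the central vein, lay between 6.36 and 6.96 (median 6.59) in the controls and between 6.24 and 6.83 (median 6.71) in the treated animals, with treated animal 1 at 6.24, over 6 treated animals. It was not called (0.030 ± 0.11, adjusted p = 0.835), and after quantile normalization it was called lower (-0.22). On that scale the calls turned to 0 risen and 9 fallen for glucose synthesis and to 3 risen and 9 fallen for periportal genes. Pericentral genes gave 6 and 7 there. With the array median subtracted, glucose synthesis gave 2 rises and 0 falls and periportal genes 10 and 1. No direction is therefore read for those lists.

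NRF2 is the factor that switches on defence genes when electrophiles modify its inhibitor KEAP1. Its targets gave 17 rises and 0 falls among 22 tested genes, with a median change of 0.80 (0.71 in treated animal 1), and 9 were called in the slide-blocked fit. Abcc4 and Cbr3, given above, belong to this list. Srxn1, sulfiredoxin, lay between 4.03 and 4.63 (median 4.3) in the controls and between 5.51 and 5.81 (median 5.68) in the treated animals, with treated animal 1 at 5.64. The lowest treated animal was well above the highest control, and the change was 1.35 ± 0.091 (SE), 2.55-fold, with adjusted p = 1.8e-07 (slide-matched 1.33, called). Hmox1, haem oxygenase, rose on its brightest probe (0.86 ± 0.23, slide-matched 0.21, not called) and was not called on another (-0.26). The promoter of Abcc4 (chr14:118706170-118706469, minus strand) has in capitals the core of the antioxidant response element, searched as TGACNNNGC on both strands. Abcc4 was picked by adjusted p among risen genes of the list whose promoter already held that core, with 1 chromosome left out as above.
Abcc4: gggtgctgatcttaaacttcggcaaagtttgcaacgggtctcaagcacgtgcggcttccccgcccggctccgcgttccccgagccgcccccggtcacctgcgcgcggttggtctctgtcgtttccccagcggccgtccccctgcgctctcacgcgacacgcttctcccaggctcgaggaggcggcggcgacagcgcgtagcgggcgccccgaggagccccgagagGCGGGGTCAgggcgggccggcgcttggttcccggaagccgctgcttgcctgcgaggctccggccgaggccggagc
That core stood in 8 of 19 promoters of the list (42.1%), against 14.7% of tested genes and 12.5% of all promoters.

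Nearly all genes of the proteasome, the protein-degrading complex, rose by a little. Of 32 tested subunits and assembly factors, all of them well above background on all 14 arrays, 29 rose and 0 fell. The changes were small, with a median of 0.53 and of 0.30 in treated animal 1, which lay above all controls for 27, and the slide-blocked limma fit called 0. The groups did not overlap for 23. After quantile normalization 25 rose. The core subunit Psma6 lay between 3.79 and 4.08 (median 3.95) in the controls and between 4.42 and 5.14 (median 4.85) in the treated animals, with treated animal 1 at 4.42. Treated animal 1 was the lowest treated animal and stood above all controls, and the change was 0.86 ± 0.098 (adjusted p = 1.4e-05, slide-matched 0.48, not called). The cap subunit Psmd3 (0.78 ± 0.091, slide-matched 0.39, not called) and the core subunit Psmb1 (0.66 ± 0.082, slide-matched 0.37, not called) rose without overlap, and Psmd8 (0.58 ± 0.093, slide-matched 0.22, not called) rose with treated animal 1 inside the control range. The antioxidant core was found in 5 of 26 proteasome promoters (19.2%).

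ATF4 targets and chaperones of the endoplasmic reticulum gave 11 rises and 2 falls among 29 tested genes (4 and 3 after quantile normalization, 9 and 2 among the 26 well above background on all 14 arrays). The degradation factor Herpud1 (-1.15 ± 0.20, slide-matched -0.75, not called) fell without overlap, and the chaperones Canx (0.37 ± 0.078, slide-matched 0.14, not called) and Pdia4 (0.70 ± 0.16, slide-matched 0.31, not called) rose with treated animal 1 inside the control range. Immediate-early and heat-shock genes gave 6 rises and 3 falls among 19 tested genes (5 and 1 among the 15 well above background on all 14 arrays), with the chaperone Hsp90aa1 (0.88 ± 0.12, slide-matched 0.41, not called), the zinc finger factor Klf6 (0.69 ± 0.10, slide-matched 0.44, not called) and the stress factor Atf3 (0.85 ± 0.19, slide-matched 0.97, not called, well above background on 6 of 7 control arrays) among the rises and the phosphatase Dusp1 (-0.90 ± 0.27, slide-matched -0.90, not called) among the falls. Subunits of the respiratory chain gave 9 rises and 1 fall among 29 tested genes, and in none of these did treated animal 1 leave the control range. They included Cox6b1 (0.36 ± 0.087, slide-matched 0.050, not called, and not called at 0.16 after quantile normalization), Ndufv2 (0.56 ± 0.15, slide-matched 0.31, not called, and not called at 0.34 after quantile normalization) and Atp5c1, which rose by 0.46 ± 0.10 (slide-matched 0.13, not called) on its brightest probe and fell by 1.04 on another. After quantile normalization 1 rose and 3 fell, so no direction is read for the chain.

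Interferon-stimulated genes gave 22 rises and 0 falls among 29 tested genes, with a median of 0.56 and of 0.57 in treated animal 1, and the slide-blocked limma fit called 0. The groups overlapped for all but 5. The immunoproteasome subunit Psmb8 (0.74 ± 0.10, slide-matched 0.24, not called), the GTPase Irgm1 (0.84 ± 0.12, slide-matched 0.64, not called) and the membrane tether Bst2 (0.74 ± 0.11, slide-matched 0.25, not called) rose without overlap, and the transcription factor Irf1 (0.67 ± 0.11, slide-matched 0.42, not called) rose with treated animal 1 inside the control range and was not called over all its probes (0.15). Per animal, the mean deviation of 27 genes was 0.055 in treated animal 2 and 0.19 in animal 5, against 1.07 in animal 6 and 0.87 in animal 4, and those of animals 2 and 5 lay within the range of the controls (-0.17 to 0.19).

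**Figure D2:**
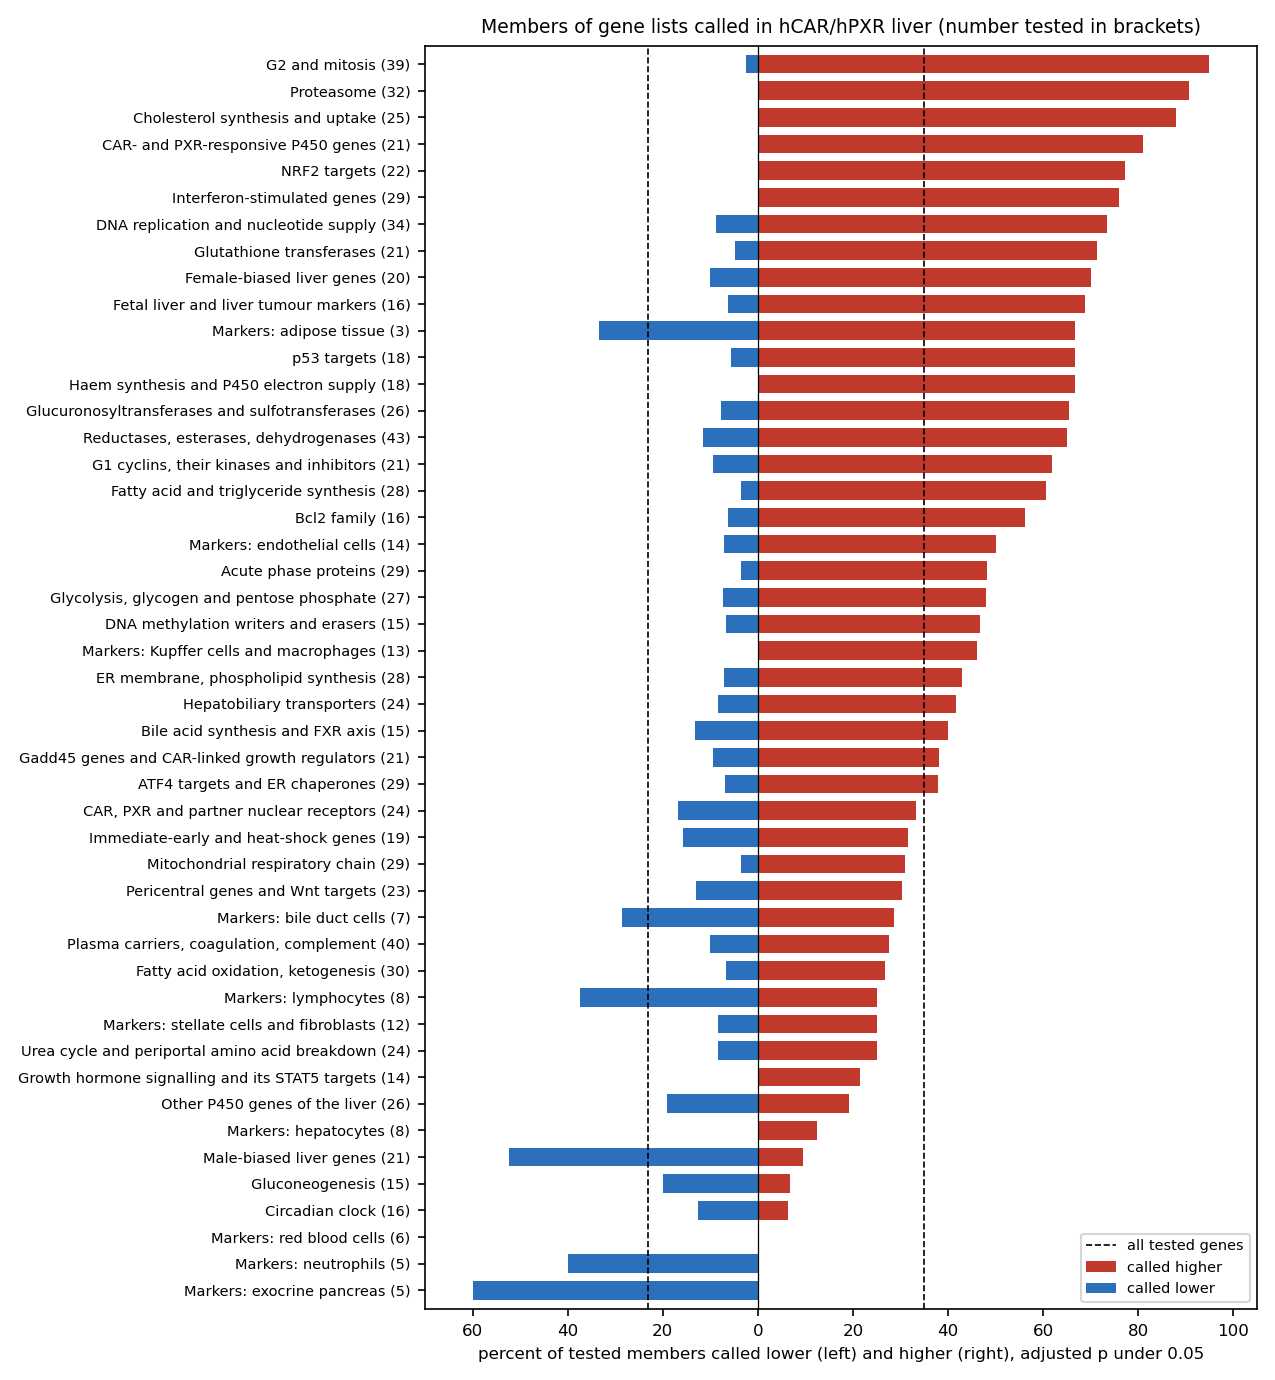
Percent of tested members called higher (right) and lower (left) in treated hCAR/hPXR mice for 47 lists, with the number tested in brackets; dashed lines are the shares of all tested genes, 35% and 23.2%. The mitosis, proteasome, cholesterol, CAR and PXR target, NRF2 and interferon lists had the most rises, and only the small marker lists and the male-biased list passed the dashed line for falls.

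Mouse liver differs by sex because growth hormone is released in pulses in males, and many genes named male- or female-biased follow that pattern through STAT5. Of 21 male-biased genes 11 fell and 2 rose, with a median change of -0.43; 6 of the 11 had treated animal 1 below all controls, and the slide-blocked limma fit called 0. Hsd3b5, a steroid dehydrogenase of male liver, was at 2.63, 6.51, 6.97, 6.66, 6.29, 6.55, 6.44 in controls 1 to 7. It was at 4.22, -1.07, 3.87, 4.73, 0.77, 3.08, 0.20 in treated animals 1 to 7. Control 1 stood far below the other 6 controls and overlapped the treated group, and treated animals 2, 5 and 7 were the lowest of all. The change was -3.75 ± 0.93 (adjusted p = 0.00326, slide-matched -1.78, not called).

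Slco1a1 was at 2.03, 3.59, 4.02, 3.74, 3.53, 4.1, 3.71 in controls 1 to 7. In treated animals 1 to 7 it was at 2.04, -1.97, 1.67, 2.26, -0.46, 1.58, -1.83. Control 1 was again the lowest control and treated animals 2, 5 and 7 the lowest treated ones, and the change was -3.06 ± 0.67 (adjusted p = 0.00147, slide-matched -1.49, not called). The proteoglycan gene Cspg5 (-1.69 ± 0.26, slide-matched -1.16, not called) fell without overlap, and the peroxisomal hydrolase Nudt7 (-0.71 ± 0.11, slide-matched -0.74, not called) fell. Female-biased genes gave 14 rises and 2 falls among 20 tested genes, and 8 of the rises were called in the slide-blocked fit. Only 10 of them were well above background on all 14 arrays, of which 7 rose and 1 fell, and Cyp2b9, Sult2a2 and Prom1, given elsewhere, belong to the list. The organic anion carrier gene Slc22a26 rose by 3.49 ± 0.62 (slide-matched 2.35, not called, well above background on 3 of 7 control arrays), with control 1 above the other controls. Growth hormone signalling genes gave 3 rises and 0 falls among 14 tested genes (2 and 2 after quantile normalization): Esr1 (0.69 ± 0.19, slide-matched 0.43, not called, and not called at 0.45 without the 3 scattered arrays), Jak2 (0.44 ± 0.12, slide-matched -0.22, not called) and Prlr (0.69 ± 0.25, slide-matched 0.45, not called, and not called at 0.47 after quantile normalization or 0.58 without the 3 scattered arrays), with treated animal 1 below all controls for Jak2 and inside the control range for the others. The Prlr call was lost when any of 7 animals (controls 3, 4, 5 and 7, treated animals 2, 6 and 7) was left out (0.58 to 0.67).

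Acute phase proteins, which the liver secretes in inflammation, gave 14 rises and 1 fall among 29 tested genes. Their median change was 0.54, but it was -0.18 in treated animal 1, which lay above all controls for 1 of the 14, and the slide-blocked limma fit called 0. Apcs, serum amyloid P, was at 6.23, 4.3, 3.07, 2.97, 3.83, 2.89, 3.66 in controls 1 to 7. It was at 4.27, 6.58, 5.0, 5.36, 6.98, 5.43, 7.13 in treated animals 1 to 7. Control 1 was the highest control, treated animals 2, 5 and 7 were the highest treated ones, and the groups overlapped (change 1.97 ± 0.55, adjusted p = 0.00669, slide-matched 0.42, not called, and not called at 1.41 without the 3 scattered arrays). The fibrinogen gene Fgb (0.59 ± 0.17, slide-matched -0.096, not called, and not called at 0.44 without the 3 scattered arrays) rose with overlap. Hamp2, a relative of the iron hormone hepcidin, rose by 2.47 ± 0.29 without overlap (slide-matched 2.27, not called). Lcn2, lipocalin 2, named after its values were seen, rose by 2.8 ± 0.84 (adjusted p = 0.0104, slide-matched 0.85, not called, and not called at 1.93 without the 3 scattered arrays), with control 1 at 8.82 against 2.82 to 5.26 in the other controls.

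The animals with high acute phase genes were those with low male-biased genes. Over 28 acute phase genes the mean deviation from the control mean was 1.12 in control 1 and 1.17, 1.32 and 1.41 in treated animals 2, 5 and 7, against -0.61 to 0.24 in the other controls and -0.13 to 0.54 in the other treated animals. Over 19 male-biased genes the same animals stood at -0.84, -1.51, -0.95 and -1.16. The neutrophil markers, 4 genes seen on all arrays, were 1.23 in control 1 and 0.75, 1.04 and 0.87 in treated animals 2, 5 and 7. The part of these markers in the changes was not tested. Without control 1 the acute phase list gave 18 rises and 1 fall, and the male-biased list 12 falls (median -0.54). The 3 arrays of highest spot scatter include that of treated animal 5, and their removal was chosen after the data were seen. Without them the acute phase list gave 1 rise and 0 falls, with a median change of 0.36 against 0.54. The male-biased list then gave 2 rises and 5 falls, with a median change of -0.41 against -0.43. The acute phase rises and male-biased falls thus became fewer without those arrays. Fewer arrays by themselves also lower the number of calls, and the part of each was not tested.

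**Figure D3:**
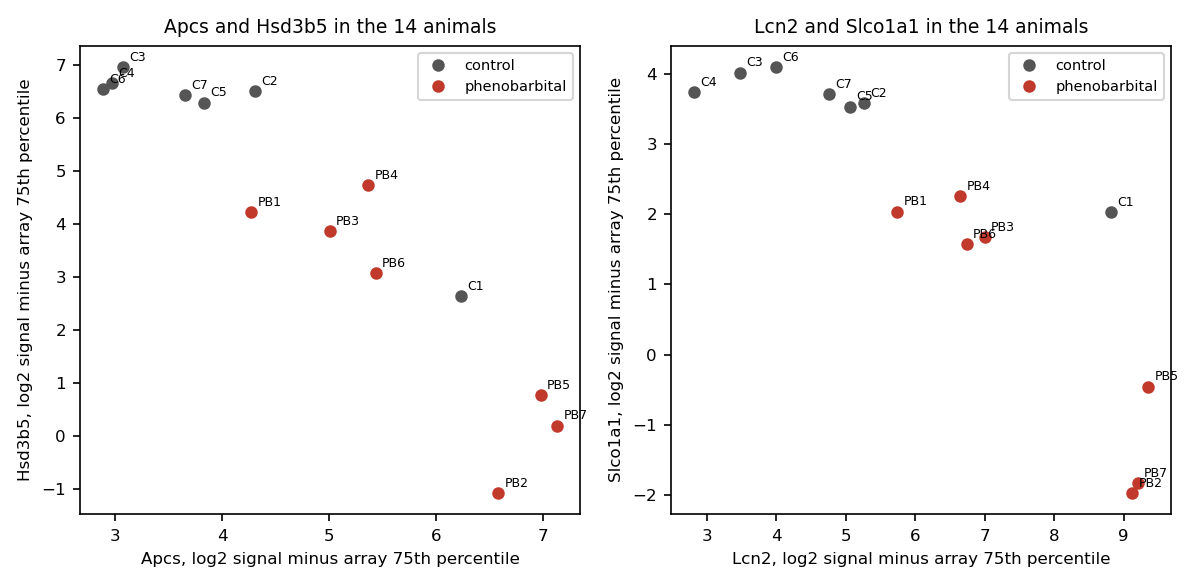
Levels of the acute phase genes Apcs and Lcn2 (x axes) against the male-biased genes Hsd3b5 and Slco1a1 (y axes), as log2 signal minus the array's 75th percentile, in 7 control (C) and 7 phenobarbital (PB) animals. Control 1 lies among the treated animals in both plots, and treated animals 2, 5 and 7 lie at the lower right.

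Plasma carriers, apolipoproteins, coagulation factors and complement gave 11 rises and 4 falls among 40 tested genes, under the shares of all genes, and their median was 0.13 against -0.20 in treated animal 1. After quantile normalization 5 rose and 13 fell, and with the array median subtracted 18 rose and 2 fell, so no direction is read for the list. The anticoagulant Pros1 (0.80 ± 0.12, slide-matched 0.50, not called) and the lectin Mbl2 (0.59 ± 0.097, slide-matched 0.47, not called) rose and C9 (-0.55 ± 0.10, slide-matched -0.94, called), the last complement component, fell without overlap. The coagulation factor gene F7 rose by 0.72 ± 0.14, and its slide-matched value had the opposite sign (-0.067).

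Fetal liver and liver tumour markers gave 11 rises and 1 fall among 16 tested genes, and 2 of the rises, Prom1 and Cbr3, were called in the slide-blocked fit. Prom1, which encodes the progenitor surface protein CD133, had the largest rise of the genes well above background on all 14 arrays. It lay between -2.07 and -0.38 (median -1.72) in the controls and between 4.2 and 5.62 (median 5.14) in the treated animals, with treated animal 1 at 4.2. Control 1 was the highest control and treated animal 1 the lowest treated animal, with more than 4 log2 units between them, and the change was 6.68 ± 0.26 (SE), 102-fold, with adjusted p = 8.22e-10 (slide-matched 5.79, called). A dimmer probe rose by 5.23. Afp, alpha-fetoprotein, lay between -1.84 and -0.87 (median -1.13) in the controls and between -0.73 and 0.23 (median -0.41) in the treated animals, with treated animal 1 at -0.42. The ranges did not meet, and the change was 0.90 ± 0.16 (adjusted p = 0.000293, slide-matched 0.80, not called). The imprinted RNA gene Meg3 rose by 1.86 ± 0.36 (slide-matched 0.81, not called) with treated animal 1 inside the control range.

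The other largest rises, taken among genes whose groups do not overlap and in which treated animal 1 lies on the treated side, were Meig1, a gene of meiosis (4.25 ± 0.32, slide-matched 4.18, called), the surface protein gene Ly6d (4.15 ± 0.52, slide-matched 3.44, not called) and the hair keratin gene Krt31 (3.99 ± 0.40, slide-matched 4.7, called). Ly6d was at 3.18 in control 1, close to the lowest treated animal at 3.7, whereas the other controls lay lower. The largest falls by the same rule were smaller: Duox1 (-2.48 ± 0.22, slide-matched -1.19, called), Klhl32 (-2.42 ± 0.41, slide-matched -0.71, not called), Vmn1r48 (-2.42 ± 0.24, slide-matched -0.98, called), Cryaa (-2.4 ± 0.39, slide-matched -0.80, not called), Aatk (-2.13 ± 0.21, slide-matched -1.82, called), Prnd (-2.1 ± 0.25, slide-matched -0.87, not called), Vmn1r87 (-2.09 ± 0.26, slide-matched -0.81, not called) and Oas1d (-2.05 ± 0.16, slide-matched -1.87, called). Among these are an oxidase, a lens crystallin and pheromone receptors. Genes that were not well above background on any treated array fell at least 2.25-fold (Klf17), 2.18-fold (Epp13) and 2.12-fold (Olfr629). The slide-blocked fit called 0 of the 3, with slide-matched log2 changes of the measured values of -1.15, -1.13 and -0.96.

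Clock genes gave 1 rise and 2 falls among 16 tested genes (0 and 3 after quantile normalization, 1 and 1 with the array median subtracted), under the shares of all genes. The falls were the repressors Cry1 (-1.05 ± 0.20, slide-matched -0.086, not called, well above background on 3 of 7 treated arrays) and Per1 (-0.71 ± 0.26, slide-matched -0.93, not called, and not called at -0.54 with the array median subtracted). The Per1 call was lost when any of 5 animals (controls 1 and 7, treated animals 3, 4 and 6) was left out (-0.60 to -0.65). Genes that write or erase DNA methylation gave 7 rises and 1 fall among 15 tested genes. Besides Uhrf1, the methyl donor enzyme Mat2a (0.70 ± 0.086, slide-matched 0.50, not called) and the maintenance methyltransferase Dnmt1 (0.44 ± 0.10, slide-matched 0.14, not called) rose, and Dnmt3l (-0.81 ± 0.16, slide-matched -0.21, not called, well above background on 5 of 7 treated arrays) fell.

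Markers of other cells differed in direction from list to list. Kupffer cell and macrophage markers gave 6 rises and 0 falls among 13 tested genes, among them C1qa (0.66 ± 0.13, slide-matched 0.044, not called), C1qb (0.51 ± 0.13, slide-matched -0.035, not called) and Cd5l (0.62 ± 0.17, slide-matched -0.22, not called), with treated animal 1 inside the control range for all 6 and a median of -0.018 in that animal against 0.35 over the group. Lymphocyte markers gave 2 rises and 3 falls among 8 tested genes. Cd4 fell by 1.41 ± 0.16 (slide-matched -0.81, not called) and Cd3e (-0.89 ± 0.15, slide-matched -0.43, not called) fell, Cd3d (0.51 ± 0.16, slide-matched -0.056, not called, and not called at 0.17 with normexp background correction) rose, and probes of Nkg7 disagreed (-0.49 and 0.38). Of 5 tested neutrophil markers 0 rose and 2 fell, Elane (-0.70 ± 0.17, slide-matched -0.12, not called) and Camp (-0.51 ± 0.15, slide-matched -0.44, not called), while the other 3, S100a8 among them, had values of 0.81 to 1.21 and were not called. Endothelial markers gave 7 rises and 1 fall among 14 tested genes. The sinusoidal marker Lyve1 (0.89 ± 0.14, slide-matched 0.87, not called) and Eng (0.47 ± 0.086, slide-matched 0.19, not called) rose, and Kdr fell by 1.19 ± 0.12 on its brightest probe and not on another (-0.030).

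Stellate cell and fibroblast markers gave 3 rises and 1 fall among 12 tested genes (5 and 0 with the array median subtracted): the collagen gene Col3a1 (0.83 ± 0.22, slide-matched 0.78, not called) and Ngfr (0.36 ± 0.10, slide-matched 0.067, not called) rose, and the vitamin A storage enzyme Lrat (-0.31 ± 0.10, slide-matched -0.22, not called, and not called at -0.14 with the array median subtracted or -0.29 without the 3 scattered arrays) fell. Bile duct markers gave 2 rises and 2 falls among 7 tested genes, with Krt19 (0.91 ± 0.17, slide-matched 0.51, not called) risen at a low level and Cftr (-1.17 ± 0.21, slide-matched -0.052, not called) and Slc4a2 (-0.94 ± 0.20, slide-matched -0.32, not called) fallen. Of red blood cell markers 0 of 6 were called. Of 5 tested pancreas markers 0 rose and 3 fell, Clps (-1.23 ± 0.21, slide-matched -0.30, not called, and not called at -0.44 over the mean of all probes), Ctrb1 (-0.62 ± 0.13, slide-matched -0.21, not called) and Cel (-0.72 ± 0.16, slide-matched -0.077, not called), and the highest value of the list was 0.67. Of the 3 tested adipose markers Retn, resistin, which was well above background on 6 of 7 control arrays and all treated ones, rose by 3.33 ± 0.26 (slide-matched 4.12, called), Fabp4 rose as given above, and Cfd (-1.53 ± 0.46, slide-matched 0.17, not called, and not called at -1.25 without the 3 scattered arrays) fell with a slide-matched value of the opposite sign. Whether any of these shifts means fewer cells of a type or less RNA per cell cannot be told from bulk liver.

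**Figure D4:**
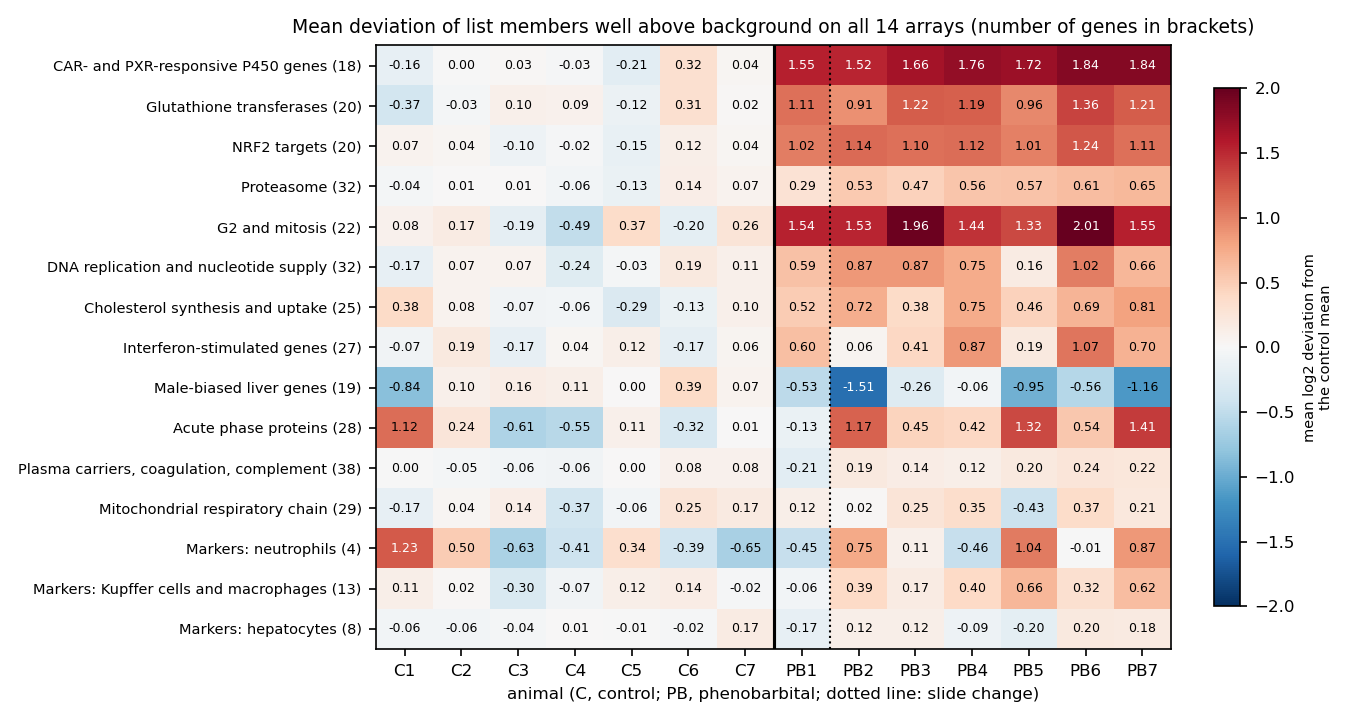
Mean log2 deviation from the control mean of list members well above background on all 14 arrays (gene numbers in brackets), for controls C1 to C7 and treated animals PB1 to PB7; the dotted line marks the change of slide. The P450, glutathione transferase, NRF2, proteasome and mitosis rows are higher in every treated animal than in any control. The cholesterol row is raised in every treated animal too, but control 1 (0.38) stands level with treated animal 3 (0.38). The acute phase, male-biased and neutrophil rows differ among animals of 1 group.

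The change in hCAR/hPXR mice was set against that in CD-1 mice with the mouse receptors, in 1 fit of all 28 arrays. The doses differ (1000 and 1500 ppm), and in CD-1 mice each group was on its own slide, so that slide and treatment cannot be told apart there. Replicate spots scattered by 11% to 21.2% on the CD-1 arrays. The difference was called for 6734 of 16747 genes (40.2%), 5013 of them higher in hCAR/hPXR mice (29.9%) and 1721 lower (10.3%). The median change of all genes tested in both strains was 0.13 in hCAR/hPXR and -0.21 in CD-1 mice, so a difference toward the humanised animals is the rule on this scale, and after quantile normalization 25.5% were higher and 14.7% lower. P450 genes of the CAR and PXR list had a median change of 1.27 in hCAR/hPXR and 2.13 in CD-1 mice over 19 genes, with 5 differences called higher and 7 lower in the humanised animals (3 and 10 after quantile normalization). Proteasome genes had 19 of 32 called higher and 0 lower (12 and 0 after quantile normalization). Cholesterol genes had 16 of 24 called higher and 0 lower (12 and 0), with medians of 0.56 in hCAR/hPXR and -0.36 in CD-1 mice. Of 19 mitosis genes tested in both strains 10 were called higher and 1 lower (6 and 1), with medians of 1.8 and 0.51. For the 19 male-biased genes limma called 0 differences higher and 0 lower.

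The largest differences toward the humanised animals were Spats2l (3.95 ± 0.25), Ly6d (3.7 ± 0.84), the retinol dehydrogenase gene Rdh16f2 (3.06 ± 0.55), Meg3 (2.9 ± 0.54) and Krt31 (2.88 ± 0.54). For Spats2l and Rdh16f2 the humanised animals themselves were not called (-0.054 ± 0.14 and 0.23 ± 0.24), whereas the mean change in CD-1 mice was -4.0 and -2.83. The largest in the other direction were the neutrophil gene S100a8 (-5.63 ± 0.94), H2-T3 (-3.36 ± 0.54), the kidney-forming factor gene Pax2 (-3.22 ± 0.78, but -0.87 and not called over the mean of all probes), the urinary protein gene Mup6 (-3.11 ± 0.51) and Cyp2c39 (-2.54 ± 0.35). S100a8 was not called in hCAR/hPXR mice (1.05 ± 0.66, adjusted p = 0.182), was called higher there without control 1 (1.47), and changed by 6.67 in CD-1 mice, and Cyp2c39 by 0.018 ± 0.19 and 2.56. H2-T3 (-2.56 ± 0.41, slide-matched -0.22, not called), Pax2 (-1.35 ± 0.20, slide-matched -0.69, not called, and not called at -0.41 over the mean of all probes) and Mup6 (-1.49 ± 0.20, slide-matched -1.16, not called) fell in the humanised animals.

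**Figure D5:**
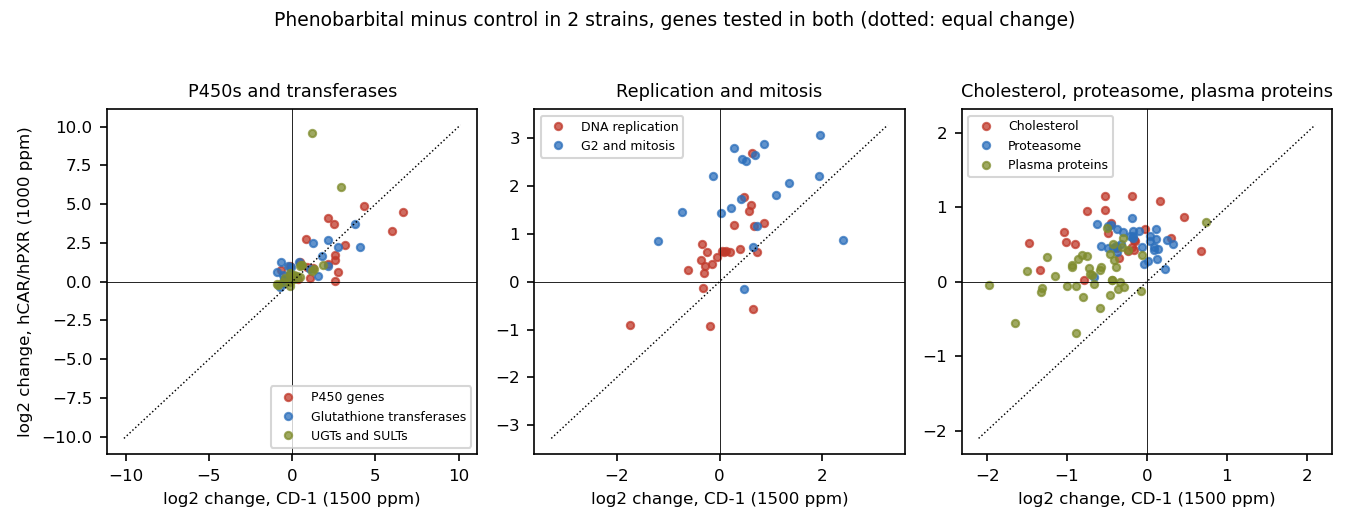
Log2 change, phenobarbital minus control, in hCAR/hPXR mice at 1000 ppm (y axes) against CD-1 mice at 1500 ppm (x axes) for genes tested in both, each point 1 gene; the dotted line marks equal change. P450 genes lie on both sides of the line, and most transferase, mitosis and replication genes lie above it. Most cholesterol and proteasome genes lie above 0 in hCAR/hPXR and below 0 in CD-1 mice. Plasma protein genes have medians of 0.13 in hCAR/hPXR and -0.62 in CD-1 mice. Their median in hCAR/hPXR mice was -0.049 after quantile normalization, so no direction is read for them there.

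Among genes well above background on all 14 arrays, most of those with the largest spread within a group had 1 or 2 arrays far below the rest. In the controls these were Rps21 (-2.64 in control 6), Alkbh7 (-2.82 in control 6), Ndufaf1 (-1.75 in control 6), Atp5b (2.25 in control 4) and Mrpl39 (-1.63 in control 4). In treated animals 2 to 7 they were Atp5j (-0.38 in animal 5), Rpl7 (2.89 in animal 5), Ndufb2 (0.50 and -0.29 in animals 4 and 5), Fam219a (3.62 and 2.28 in animals 4 and 5) and Hsd3b5, which was low in 3 animals as given above. Of the 9 genes other than Hsd3b5, most encode parts of ribosomes or mitochondria, and limma called 0 of the 9 on these probes. Fam219a was called lower when any of treated animals 1, 3, 6 and 7 was left out (-2.03 to -2.1). Rpl7 was called higher without treated animal 5 (0.30), Alkbh7 was called higher without control 6 (0.36) and Rps21 was called lower without it (-0.91). Control 6, control 4 and treated animal 5 are the arrays with the highest scatter of replicate spots, and its part in these values was not tested. Other probes of Rpl7, Alkbh7 and Fam219a did not show the low values, with changes of 0.065 to 0.39 for Rpl7, 0.38 for Alkbh7 and 0.21 for Fam219a.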

How the data were processed

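Total RNA of single livers was labelled with Cy3 and hybridised to 1-colour Agilent arrays, per the labels' protocols. The deposited intensity values are the processed signal of each spot, background-subtracted and detrended within the array by Agilent Feature Extraction 10.7.3.1, per the file headers, and not normalized between arrays. The authors also deposited a table of log2 values whose scaling no label states. Compared here with the scanner values, it was log2 signal minus each array's 75th percentile, apart from a constant per array of -0.0233 to 0.0102, and it served as an alternative. The log2 of the processed signal minus the 75th percentile over 55681 non-control probes was computed here. Spots flagged as outliers were left out and repeat spots averaged. 26576 probes carried a gene symbol and 29105 did not; the brightest probe stood for each of 37208 genes and transcripts, 9668 of which had several. A gene was tested if it was well above background on every array of at least 1 group.

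Phenobarbital and control animals, 7 each, were compared with limma 3.58.1 (lmFit and eBayes, R 4.3.3, two-sided, Benjamini-Hochberg adjustment over all tested genes), and the difference from CD-1 mice in a fit of all 28 arrays. On simulated data with 200 changed genes among 20037, the fit recovered 48%, 84% and 100% of log2 changes of 0.5, 1 and 2 and 82% of changes of -1, with 7 false calls. False calls that the slide may cause were not tested there. Alternatives were the slide and the replicate number as blocks, other normalizations, background correction, filters and probe rules, and single animals left out. Genes named are a fixed set of 20 genes, the 8 largest rises and falls seen on all 14 arrays without overlap and with treated animal 1 on the same side, the 3 largest lower bounds each way, of each list the 3 smallest adjusted p and 1 call with treated animal 1 inside the control range, the 5 largest differences from CD-1 each way, and the 5 largest spreads in each group; Mcm6 and Lcn2 were added after their values were seen, and some genes that the rule names are not reported here. The 47 lists hold 1033 symbols, 1005 of them on the array and 916 tested. Members and lists were chosen with earlier results of these data known. Python 3.11.15, pandas 2.3.3 and matplotlib 3.10.9 were used for tables and plots.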

Additional observations from a re-analysis of the deposited data

Results flagged for a closer look

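Within each group of 7 animals the gap of the highest or lowest animal to its neighbour was compared with the range of the group, for 194 named genes and 388 groups, and 50 values stood apart by Dixon's criterion. Chance alone flags about 1 in 20 groups, and the genes are not independent. Some genes were also named for values that this criterion reads. Among them Ncor1, Fah, Oat, Psmd8 and F7 were named as calls with treated animal 1 inside the control range. Rps21, Alkbh7, Atp5b, Ndufaf1, Mrpl39, Atp5j, Ndufb2, Rpl7 and Hsd3b5 were named for their spread, and Lcn2 after its values were seen. Their flags were partly fixed by that choice, so the counts per animal are not read against chance. Levels are log2 signal minus the array's 75th percentile, each with the nearest other animal of its group. Control 1 gave 17 of them. It was the lowest control for Cyp2c55 (1.39, nearest 2.5), Cyp1a2 (2.72, nearest 3.54), Meig1 (-1.67, nearest 0.027), Slco1a1 (2.03, nearest 3.53), Agxt (6.86, nearest 7.3), Ngfr (-0.63, nearest -0.26), Cfd (-2.07, nearest -0.68), Atp5j (6.24, nearest 6.62), Hsd3b5 (2.63, nearest 6.29). It was the highest control for Prom1 (-0.38, nearest -1.65), Akr1b7 (0.062, nearest -0.94), Ly6d (3.18, nearest 0.36), Pdia4 (4.08, nearest 3.43), Slc22a26 (-1.11, nearest -3.37), Apcs (6.23, nearest 4.3), Irf1 (4.23, nearest 3.83), Lcn2 (8.82, nearest 5.26). These include acute phase genes (Apcs, Lcn2), male-biased genes (Hsd3b5, Slco1a1) and P450 genes (Cyp2c55, Cyp1a2).

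Treated animal 1, the 1 treated animal on the slide of the controls, gave 13. It was the lowest treated animal for Cyp2b10 (9.63, nearest 9.9), Gadd45b (2.33, nearest 2.84), Ncor1 (1.28, nearest 1.75), Fah (6.49, nearest 6.74), Oat (6.89, nearest 7.32), Psmd3 (6.35, nearest 6.69), Psmd8 (4.24, nearest 4.58), Jak2 (0.81, nearest 1.43), F7 (3.65, nearest 4.37). It was the highest treated animal for Duox1 (-1.32, nearest -2.62), Vmn1r48 (3.5, nearest 2.08), H2-T3 (2.07, nearest -0.22), Rps21 (5.97, nearest 5.27). Treated animal 2 stood apart for Alas1 (highest, 8.67 against 8.11), Meig1 (lowest, 3.57 against 4.32), Ndufaf1 (lowest, 3.34 against 3.71). Treated animal 3 stood apart for Spats2l (lowest, -2.72 against -2.21). Treated animal 4 stood apart for Nudt7 (highest, 7.23 against 6.64). Treated animal 5 stood apart for Atp5j (lowest, -0.38 against 6.45), Rpl7 (lowest, 2.89 against 7.88). Control 2 stood apart for Epp13 (highest, -0.51 against -2.24). Control 4 stood apart for Krt31 (lowest, -1.53 against 1.03), Atp5b (lowest, 2.25 against 8.5), Mrpl39 (lowest, -1.63 against 3.58), Ndufb2 (lowest, 3.95 against 5.65). Control 6 stood apart for Gstt3 (highest, 6.06 against 5.55), Psmb1 (highest, 5.35 against 5.13), Rps21 (lowest, -2.64 against 6.06), Alkbh7 (lowest, -2.82 against 4.41), Ndufaf1 (lowest, -1.75 against 3.56). Control 7 stood apart for Vmn1r48 (lowest, 3.93 against 4.48), Olfr629 (lowest, -3.39 against -2.55), Aldh1b1 (highest, 3.77 against 3.42).

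The change under phenobarbital differed between hCAR/hPXR and CD-1 mice, by limma's test of the difference over all genes tested in both, for the 10 genes named for that difference. It was higher in hCAR/hPXR mice for Spats2l (3.95), Ly6d (3.7), Rdh16f2 (3.06), Meg3 (2.9), Krt31 (2.88), and lower for S100a8 (-5.63), H2-T3 (-3.36), Pax2 (-3.22), Mup6 (-3.11), Cyp2c39 (-2.54). Dose (1000 and 1500 ppm), slide, strain and the brightness of the arrays cannot be told apart in these differences.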

How the results depend on the processing

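With the slide as a block 253 genes were called higher and 187 lower, against 7004 and 4639 without it; 1 treated animal then carries the comparison. Over quantile normalization, array median subtracted, normexp background correction, deposited value table, no filter on dim probes, well above background on all arrays and mean of all probes, rises numbered 5473 to 9019, falls 3559 to 5335 and differences from CD-1 5829 to 7552. Leaving out 1 animal at a time gave 6359 to 7431 rises, 4401 to 4763 falls and 6228 to 7203 differences. Without the 3 arrays of highest spot scatter (control 4, control 6, treated animal 5; chosen after seeing the data) there were 6537 rises and 4417 falls. With the replicate number as a block there were 6813 rises, 4609 falls and 5764 differences. Same-numbered animals deviated with correlations of -0.139 to 0.278, and 2 of 7 matched their own number best. These few values do not tell whether same-numbered animals were paired in any way.

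Of 194 named genes tested in that fit, 59 kept direction and side of the threshold with the slide as a block, 127 kept direction and lost the call, and 8 changed sign: C1qb (-0.035), Cd3d (-0.0556), Cd5l (-0.2183), Cfd (0.1716), F7 (-0.0671), Fgb (-0.0959), Hk1 (-0.0172) and Jak2 (-0.221). The mean of all probes turned Atp5c1 (-0.2882) and Hk1 (-0.0969), whose probes disagree, and quantile normalization turned Glul (-0.2213). Without the 3 scattered arrays Rpl7 (0.3016) and Rps21 (-0.8881) turned; leaving out 1 animal at a time gave a Rpl7 log2 change of -0.5691 to 0.3026 and a Rps21 log2 change of -0.9089 to 0.5684. The cause was not tested. The number of arrays limits the precision, and for dim genes the signal over background does.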
